A study of Mus musculus with 6 samples.

Results

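Genes of lipoprotein assembly and transport were followed in mouse liver, namely the apolipoprotein genes Apoa1, Apoa2, Apoa4, Apoa5, Apob, Apoc1, Apoc2, Apoc3 and Apoe, and Mttp. Members were the array probes whose RefSeq accession carries one of these symbols. This gave 11 probes for 9 of the 10 genes, out of 39429 probes and 14803 genes tested on the arrays. No probe was assigned to Apoc2 through its accession, and it was not analysed here. Every one of the 9 measured genes was well above background on all 6 arrays.

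Male ICR mice, an outbred stock of 18 to 22 g, had received by stomach, each day for 35 days, 0.08 mL per 20 g of either DECB, a deproteinized extract made from calf blood, or saline (control). The labels give 12 mice in each group, and liver RNA of 3 control and 3 DECB samples was read on 1-colour Cy3 arrays, named here by their title numbers as control 1 to 3 and DECB 4 to 6. A second label of each sample gives other times, 1 day for controls and 30 days for DECB. A hypoxia tolerance test was also done on these mice, and whether liver was taken before or after it is not stated. Neither an age nor a mouse is given for any array, so p-values cover the variation among these samples alone, and it may be technical.

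Lipoproteins carry triglyceride and cholesterol in blood. In hepatocytes the microsomal triglyceride transfer protein, encoded by Mttp, loads lipid onto apolipoprotein B in the endoplasmic reticulum, and the smaller apolipoproteins join the particle there or in plasma. Apolipoprotein A-I and A-II are the main proteins of high density lipoprotein, C-II and A-V favour lipolysis by lipoprotein lipase, C-III and C-I restrain clearance, and E is a ligand for receptors of remnant particles. Apoa1, Apoc3, Apoa4 and Apoa5 are neighbours on mouse chromosome 9, and Apoe, Apoc1 and Apoc2 lie together on chromosome 7.

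Arrays that share a scan time in their headers are called a slide here. Control 1 was scanned with DECB 6 (slide 1) and DECB 4 with the other controls, 2 and 3 (slide 2), while DECB 5 had a scan time of its own (slide 3). Slide 1 was dim: the 75th percentile of its processed signal was 78.8 and 84.8, against 422 to 551 on the other arrays, and 14922 and 16349 probes were well above background there, against 23998 to 29487. Across genes, which are not independent replicates, the arrays of controls 2 and 3 were the most alike (Pearson's r = 0.992, against 0.901 to 0.968 for other pairs). No spot was saturated on any array. A relative log2 signal is the log2 of a gene's signal after division by the 75th percentile of its own array, and differences are DECB minus control. Slide was not balanced over the groups, so each main value is also given within slides or with slide as a block in the fit.

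Promoter windows of the 3 genes with the largest differences in the same direction on slides 1 and 2 are shown for orientation, from RefSeq on GRCm38.p6, 5′ to 3′ on the gene's strand, from 250 bases before to 50 bases after the annotated start. Capitals mark matches to the motifs named after them.
Apoa5, chr9:46268358-46268657, plus strand: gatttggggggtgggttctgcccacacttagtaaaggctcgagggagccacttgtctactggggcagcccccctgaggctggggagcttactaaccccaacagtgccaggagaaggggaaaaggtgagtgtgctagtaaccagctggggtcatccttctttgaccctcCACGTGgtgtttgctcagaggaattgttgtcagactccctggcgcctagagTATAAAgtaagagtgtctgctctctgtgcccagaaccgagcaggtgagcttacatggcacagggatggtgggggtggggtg
Apoa1, chr9:46228380-46228679, plus strand: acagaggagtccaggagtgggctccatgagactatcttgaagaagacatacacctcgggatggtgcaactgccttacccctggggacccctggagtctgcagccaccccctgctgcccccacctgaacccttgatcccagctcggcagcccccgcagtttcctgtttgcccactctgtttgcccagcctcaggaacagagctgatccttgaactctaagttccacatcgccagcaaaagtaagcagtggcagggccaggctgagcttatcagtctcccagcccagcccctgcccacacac
Mttp, chr3:138143369-138143668, minus strand: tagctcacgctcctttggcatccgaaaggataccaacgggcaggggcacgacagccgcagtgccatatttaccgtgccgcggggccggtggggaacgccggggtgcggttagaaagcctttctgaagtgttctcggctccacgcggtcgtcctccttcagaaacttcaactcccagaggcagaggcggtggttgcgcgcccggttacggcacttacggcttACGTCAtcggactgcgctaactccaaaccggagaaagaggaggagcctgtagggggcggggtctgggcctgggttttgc

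Short motifs were searched on both strands of these windows. Nuclear receptors bind AGGTCA, which is also contained in its direct repeat spaced by 1 base, and HNF4 binds CAAAGTCCA. Forkhead factors bind GTAAACA, and TGACGT is the core of a cAMP response element. The box that positions transcription start was searched as TATAAA, and the E-box as CACGTG. The Apoa5 window shown held the E-box, from 82 bases before the start, and TATAAA, from 31 bases before it. Apoa5 has another listed window, with another annotated start, and there the same motifs began 107 and 56 bases before the start. The Mttp window held TGACGT on its other strand, from 29 bases before the start. The Apoa1 window held none of the motifs. Of the windows not shown, that of Apoa4 held none either, that of Apob held TATAAA from 60 bases before the start, and that of Apoc2 held AGGTCA from 115 bases before it and again after it. The first listed window of Apoa2 held AGGTCA, and its other window held both the forkhead motif and the box motif. Of the 3 windows of Apoe the first listed held the forkhead motif, the next the box motif and the last none. Among 32817 windows of the same length, 7.15% held CACGTG, 13.6% TATAAA, 7.5% TGACGT, 16.3% AGGTCA, 3.65% GTAAACA, 0.475% CAAAGTCCA and 0.04% the direct repeat. Windows were listed for 8 of the 10 genes.

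The comparison of DECB with control asked which of these genes differed in liver after the extract. None of the 9 measured genes passed the test across all genes (limma, Benjamini-Hochberg adjusted p), where 0.466% of all genes passed, 0.209% higher and 0.257% lower. Mttp alone of the 9 had an unadjusted p under 0.05, against 10% of all genes in either direction and 5.79% lower. In mean signal Apob was 2.40-fold lower in DECB samples, Apoa5 2.37-fold, Mttp 1.64-fold, Apoa1 1.51-fold and Apoa2 1.25-fold, while Apoa4 was higher by 0.13 on the log2 scale. Apoc1, Apoc3 and Apoe were 1.12-fold, 1.01-fold and 1.07-fold lower. Of the 9 genes 8 had a mean difference below 0, as had 52.5% of all genes, and their median difference was -0.32 against -0.03 over all genes. With slide as a fixed block in the fit these medians were -0.22 and -0.05, with 7 of the 9 genes below 0. Within slide 1 they were -0.26 and -0.05, with all 9 below 0. Within slide 2 they were -0.02 and -0.06, with 6 below 0, so the members' median was not below that of all genes there.

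**Figure D1:**
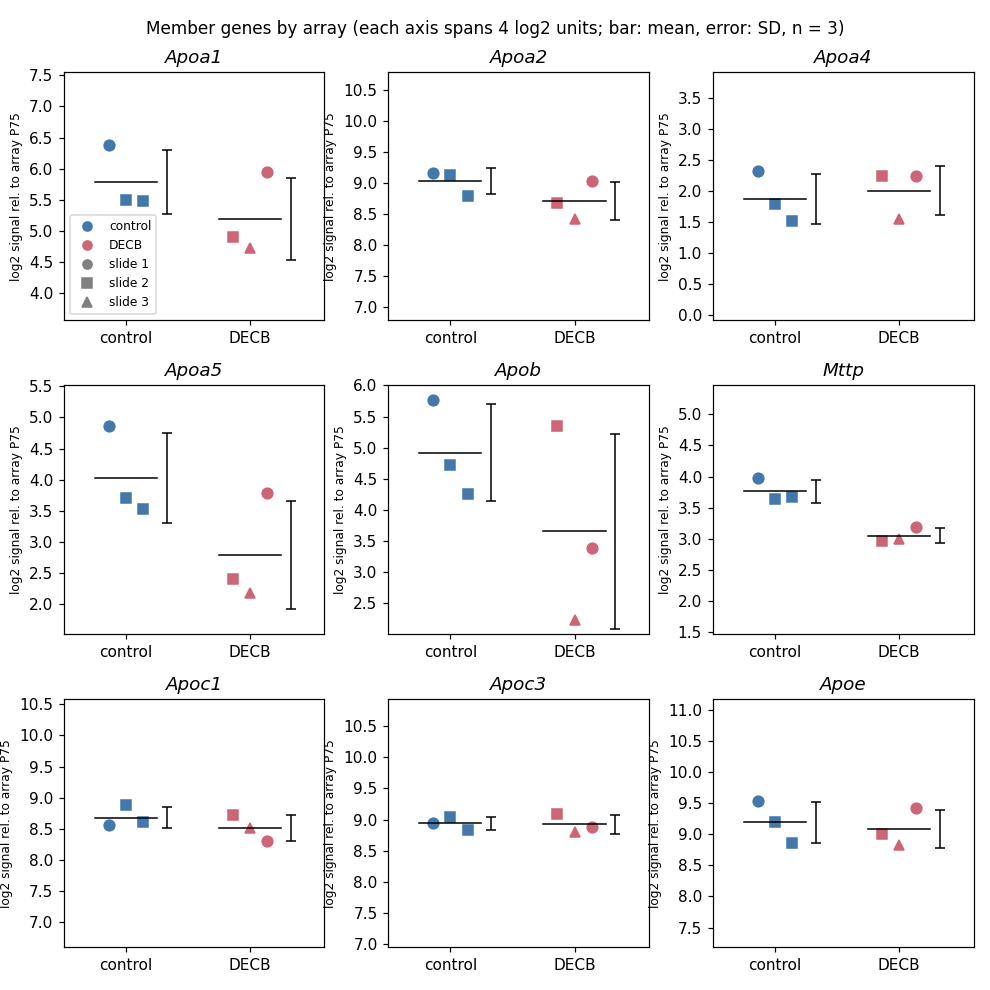
Relative log2 signal (log2, after division by the 75th percentile of each array) of the 9 measured genes in control and DECB arrays, with the slide as the marker shape, the group mean as a line and the SD beside it (n = 3). Each axis spans 4 log2 units. The groups do not overlap in the Mttp panel and overlap in the other 8, and in Apoa1 and Apoa5 the round markers of slide 1 lie above the other arrays of their group.

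Mttp, the lipid loading factor, had relative log2 signals of 3.98, 3.64 and 3.68 in controls 1, 2 and 3 and of 2.96, 3.0 and 3.19 in DECB 4, 5 and 6. All DECB arrays lay below all control arrays, which 9.4% of all genes showed, and no member had all DECB arrays above, which 7.24% of all genes showed. Before scaling, its processed signals were 1241, 5250 and 7042 in the controls and 3301, 4224 and 774 in DECB 4, 5 and 6, with the slide 1 arrays lowest. The group means were 3.76 ± 0.19 and 3.05 ± 0.12 (SD, n = 3), a difference of -0.71 (SE 0.27, limma adjusted p = 0.425, 95% confidence interval -1.34 to -0.09 before adjustment). The difference was -0.79 within slide 1 and -0.70 within slide 2. A fixed block for slide gave -0.74 (SE 0.15, limma adjusted p = 0.0575), and a random block also gave -0.74 (limma adjusted p = 0.0167). The fixed block called 6.67% of all genes (2.74% higher, 3.94% lower) and the random block 15.1% (8.78% lower). Mttp thus lay above the threshold under one form of the block and below it under the other.

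Apoa5 encodes apolipoprotein A-V, which lowers plasma triglyceride by favouring lipolysis. Its relative log2 signals were 4.86, 3.70 and 3.53 in controls 1, 2 and 3 and 2.39, 2.17 and 3.79 in DECB 4, 5 and 6. DECB 6 lay above controls 2 and 3, so the groups overlapped, while on each slide that held both groups the DECB array lay below its controls. The means were 4.03 ± 0.72 and 2.79 ± 0.88 (SD, n = 3), a difference of -1.24 (SE 0.55, limma adjusted p = 0.529). Within slides 1 and 2 the difference was -1.07 and -1.22. In the fit that blocks on slide as a fixed effect Apoa5 fell by 1.16 on the log2 scale (SE 0.16, limma adjusted p = 0.0323, 95% confidence interval -1.57 to -0.74 before adjustment). It was the 1 gene of the 9 called in that fit, and 3 of them, with Mttp and Apoa1, had an unadjusted p under 0.05 there, against 16.7% of all genes lower. Under the random block Apoa5 fell by 1.19 (limma adjusted p = 0.0133).

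The blocked call of Apoa5 rested on few arrays. The fixed-block fit has 2 residual degrees of freedom, and DECB 5, with no control on its slide, does not enter its contrast. Leaving out single arrays in this fit was an alternative chosen after seeing the data. The limma adjusted p of Apoa5 was then 0.144 without control 2 and 0.116 without control 3. Without DECB 4 only DECB 6 and control 1 were left in the contrast, and the difference was -1.07. Leaving out control 1 or DECB 6 gave 1 and the same contrast, DECB 4 against controls 2 and 3, with a difference of -1.22. With all arrays the residual spread of Apoa5 comes in part from the difference between controls 2 and 3, the most alike arrays. In the contrasts with 1 DECB array it comes wholly from that difference, before limma's moderation.

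Apoa1, the main protein of high density lipoprotein, was measured by 1 probe with 10 spots per array. After outlier spots were left out, 9 or 10 of them were kept, with an SD within an array of 0.0488 to 0.13 on the log2 scale. Its relative log2 signals were 6.39, 5.50 and 5.47 in controls 1, 2 and 3 and 4.91, 4.73 and 5.94 in DECB 4, 5 and 6. The groups overlapped through DECB 6, and on slides 1 and 2 each DECB array again lay below its controls. The difference was -0.59 (SE 0.44, limma adjusted p = 0.803), and -0.44 and -0.58 on slides 1 and 2 taken singly. Blocking on slide gave -0.52 (SE 0.15, limma adjusted p = 0.11). The within-slide differences exceeded the SD between kept spots, an error that leaves out labelling and hybridisation.

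Gaps between slides were as large as the group differences for Apoa5 and larger for Apoa1. Control 1 exceeded the mean of controls 2 and 3 by 0.90 for Apoa1 and 1.24 for Apoa5, and DECB 6 exceeded DECB 4 by 1.04 and 1.40. The same gaps for Mttp were 0.32 and 0.23. What part of this gap is slide brightness and what part is the sample cannot be told apart for single arrays.

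**Figure D2:**
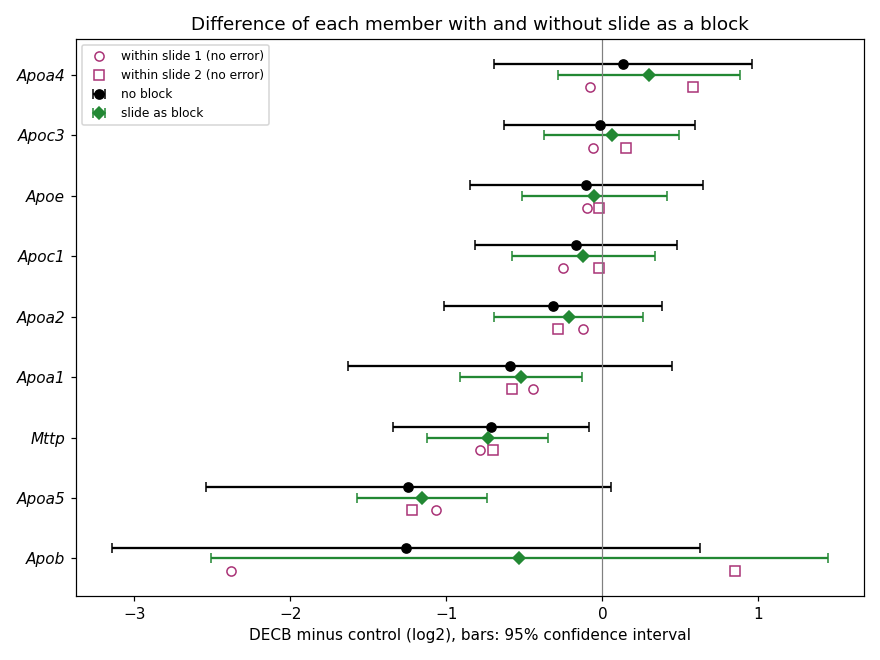
Difference of DECB minus control (log2) for the 9 measured genes without a block (black, 95% confidence interval), with slide as a fixed block (green, 95% confidence interval) and within slides 1 and 2 (open markers, with no error). Apoa5, Mttp and Apoa1 have open markers close to each other and below 0, and those of Apob stand on opposite sides of 0, at -2.38 and 0.85.

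Apoa2, the second protein of high density lipoprotein, had 2 probes. At the brighter one the relative log2 signals were 9.15, 9.13 and 8.78 in the controls and 8.67, 8.42 and 9.03 in DECB 4, 5 and 6. The groups overlapped, and the difference was -0.32 (SE 0.30, limma adjusted p = 0.879), with -0.26 at the other probe. Slides 1 and 2 gave -0.13 and -0.28, and the fixed block gave -0.22 (limma adjusted p = 0.488). Apoa1, Apoa2, Apoa5 and Mttp were thus the 4 of 9 genes (44.4%) whose DECB arrays lay below the controls on slides 1 and 2 alike, a pattern that 32.7% of all genes showed. None of the 9 lay above the controls on both slides, as 24.8% of all genes did.

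Apob encodes the structural protein of very low density lipoprotein and had the widest spread of the 9 genes. At the brighter probe its relative log2 signals were 5.77, 4.73 and 4.25 in controls 1, 2 and 3 and 5.34, 2.23 and 3.39 in DECB 4, 5 and 6. DECB 4 lay above controls 2 and 3, and DECB 5 and 6 lay below all controls. The mean difference of -1.26 (SE 0.80, limma adjusted p = 0.736) had a 95% confidence interval of -3.15 to 0.62. It was -2.38 within slide 1 and 0.85 within slide 2, so the direction differed between slides, a difference that was not tested. The fixed block gave -0.53 (SE 0.76, limma adjusted p = 0.686).

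The second Apob probe spanned a smaller range, with 3.99, 3.52 and 3.24 in controls 1, 2 and 3 and 3.70, 2.41 and 3.29 in DECB 4, 5 and 6. There DECB 5 lay below all other arrays, and DECB 6 lay above control 3. Its difference was -0.45 (SE 0.41, limma adjusted p = 0.868, over all probes). The log2 ratio of the brighter to the dimmer probe was 1.78, 1.21 and 1.01 in controls 1, 2 and 3. It was 1.64 in DECB 4, -0.18 in DECB 5 and 0.11 in DECB 6. The ratio was thus lower in DECB 5 and 6 than on the other 4 arrays, and the probes' places on the long Apob transcript were not analysed here.

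**Figure D3:**
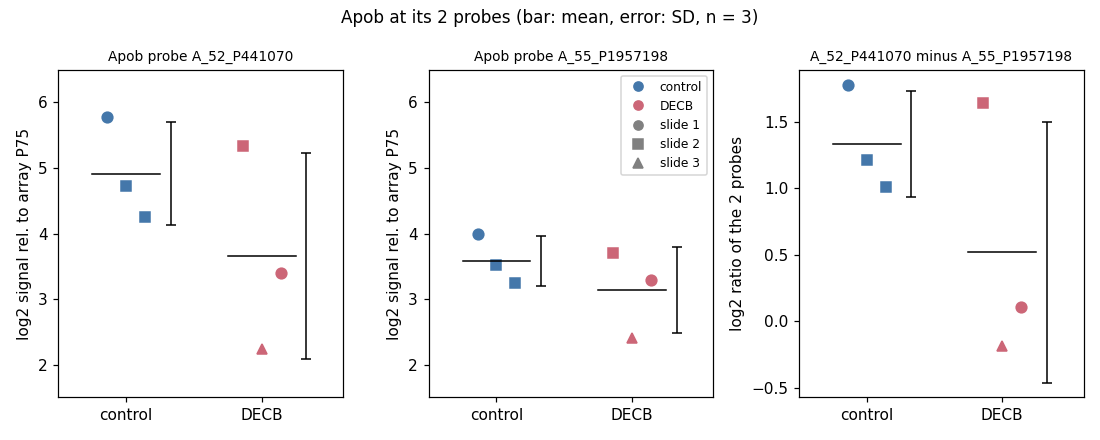
Relative log2 signal of Apob at each of its 2 probes, and the log2 ratio between these probes, in control and DECB arrays with the slide as the marker shape (line, mean; bar, SD; n = 3). DECB 5 and DECB 6 have ratios of -0.18 and 0.11, below the other 4 arrays at 1.01 to 1.78.

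Apoa4 encodes apolipoprotein A-IV, a protein of chylomicrons and high density lipoprotein that is also made in liver. Its relative log2 signals were 2.32, 1.79 and 1.52 in controls 1, 2 and 3 and 2.24, 1.55 and 2.24 in DECB 4, 5 and 6. The groups overlapped throughout. The difference was 0.13 (SE 0.35, limma adjusted p = 1), with a 95% confidence interval of -0.69 to 0.96, and -0.08 within slide 1 and 0.58 within slide 2.

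Apoc1 and Apoc3, whose proteins restrain lipoprotein clearance, and Apoe also differed little in mean. Apoc3 ranged from 8.84 to 9.04 in controls and from 8.80 to 9.09 in DECB samples, and differed by -0.02 (95% confidence interval -0.63 to 0.60). Apoc1 ranged from 8.56 to 8.87 and from 8.30 to 8.71, and differed by -0.17 (-0.81 to 0.48). Apoe had 10 spots per array, of which 6 to 10 were kept after outlier spots were left out, with an SD between kept spots of 0.0495 to 0.117. It ranged from 8.86 to 9.53 and from 8.83 to 9.43, and differed by -0.10 (-0.85 to 0.64). Groups overlapped for all 3 genes, with limma adjusted p of 0.982 to 1. Without a block the intervals of Apoc1 and Apoe held the -0.71 seen in Mttp, and that of Apoc3 ended short of it. Blocking on slide gave intervals of -0.37 to 0.49 for Apoc3, -0.58 to 0.34 for Apoc1 and -0.52 to 0.41 for Apoe. These did not reach the -0.74 of Mttp in that fit, which has 2 residual degrees of freedom.

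Ratios between neighbouring genes within an array need no scaling between arrays. Apoa5 was lower relative to Apoa1 in DECB samples: the centred log2 ratio of Apoa1 to Apoa5 was -0.55, -0.29 and -0.14 in controls 1, 2 and 3 and 0.43, 0.47 and 0.07 in DECB 4, 5 and 6. The groups did not overlap, and the difference was 0.65, with 0.62 within slide 1 and 0.64 within slide 2. The ratio of Apoa4 to Apoa5 differed by 1.38, from -1.07 to -0.45 in controls and from -0.08 to 1.31 in DECB samples, again without overlap. Apoa1 to Apoa4 differed by -0.73, with 0.16 to 0.52 in controls and -0.88 to 0.15 in DECB samples, so the groups stood only just apart. For these 3 ratios the exact two-sided permutation p was 0.1, the smallest that 3 against 3 arrays allow, and 0.233 after Benjamini-Hochberg adjustment over the 7 ratios tested. The 3 ratios are formed from Apoa1, Apoa4 and Apoa5 alone and each follows from the others, so they are not separate observations. The share of other gene pairs whose ratios stand apart was not computed. Of single genes 9.4% lay lower and 7.24% higher without overlap.

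The other 4 ratios overlapped between groups. Apoc3 to Apoa5 differed by 1.23, Apoa1 to Apoc3 by -0.58 and Apoc3 to Apoa4 by -0.15 (exact permutation p = 0.3, 0.3 and 0.7). On chromosome 7 the ratio of Apoe to Apoc1 differed by 0.07 (exact permutation p = 0.6), with 0.42 in control 1 and 0.58 in DECB 6 against -0.29 to -0.22 on the other 4 arrays. This last ratio separated slide 1 from the other slides and did not separate the groups. A ratio shows unequal change and not which gene changed.

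**Figure D4:**
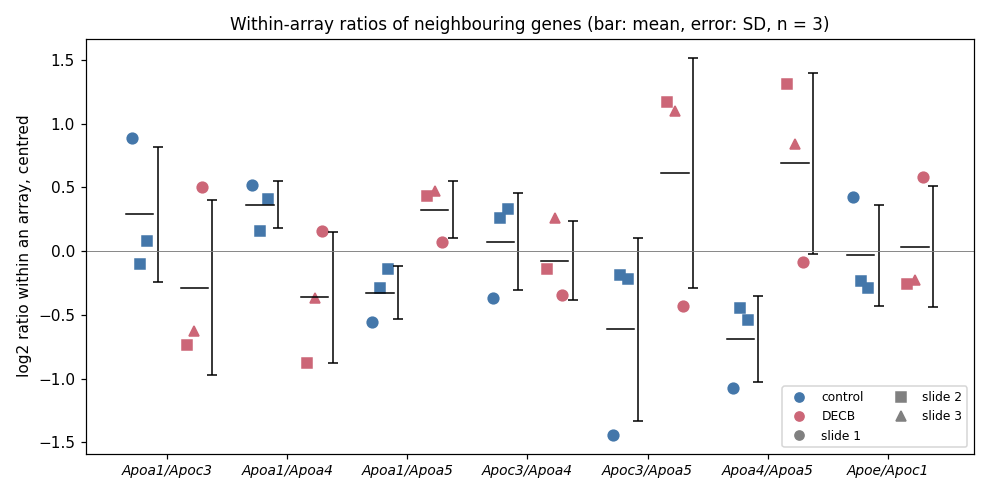
Centred log2 ratios between neighbouring genes within each array, for 6 pairs of the chromosome 9 cluster and for Apoe to Apoc1, in control (blue) and DECB (red) arrays with the slide as the marker shape (line, mean; bar, SD; n = 3). The groups stand apart for Apoa1/Apoa4, Apoa1/Apoa5 and Apoa4/Apoa5, and Apoe/Apoc1 is high in the slide 1 arrays of both groups.

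Mttp had the smallest p of the 9 genes, and the 5 genes most like it over the 6 arrays, among 9336 others well above background on all of them, were Acbd5, Lpin2, Slc8b1, B3galnt1 and Tbc1d22a (Pearson's r of 0.995 to 0.998, n = 6 arrays that share slides and groups). Lpin2 is a phosphatidate phosphatase of triglyceride synthesis and Acbd5 a peroxisomal acyl-CoA binding protein. Lpin2 and Acbd5 differed by -1.88 and -0.88, and Slc8b1, B3galnt1 and Tbc1d22a by -2.43, -1.87 and -0.69, against -0.71 for Mttp. Genes chosen for likeness to Mttp over these arrays share its direction by that choice.

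Partners of lipoprotein assembly and secretion in the endoplasmic reticulum numbered 26 genes, all measured. None passed over all genes, and the median difference was -0.11. In the fixed-block fit 2 rose and 1 fell. Ces1g, a carboxylesterase that acts on hepatic lipid, differed by -1.53 (limma adjusted p = 0.102, and 0.0376 in the fixed-block fit). Sec23b, of the COPII vesicle coat, differed by 1.70, and Tmem41b, a lipid scramblase needed for lipoprotein export, by 1.12 (limma adjusted p = 0.151 for both, and 0.0212 and 0.03 in the fixed-block fit). With its probes averaged Tmem41b differed by 0.88 (limma adjusted p = 0.207, without a block). Sort1, a sorting receptor that binds apolipoprotein B, differed by -1.85 (limma adjusted p = 0.178), at a probe well above background on 4 of 6 arrays, and by -0.48 with normexp background correction.

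Among 12 other proteins carried on lipoproteins 1 rose and none fell, with a median of -0.21. Saa1, serum amyloid A of the acute phase, which rides on high density lipoprotein, rose by 3.53 (SE 0.36, limma adjusted p = 0.026). This call was lost without any 1 of controls 1, 2 and 3, DECB 4 and DECB 5 (limma adjusted p of 0.0752 to 0.162, differences of 3.35 to 3.87). Saa4 and Saa2 differed by 1.63 and 2.76 (limma adjusted p = 0.0679 and 0.151), and Apoh by -0.50 (0.742). Saa1, Saa2 and Saa4 were the 3 that rose in the fixed-block fit. Saa1 and Saa2 are near-identical in sequence, so a probe to one may also read the other.

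Of 20 genes of lipolysis, remodelling and uptake 19 passed the filter on dim probes, Lipg being above background on no array, and 1 rose, with a median of -0.05. Angptl8, an inhibitor of lipoprotein lipase that insulin induces, rose by 2.53 (SE 0.31, limma adjusted p = 0.0352). Leaving out any 1 array ended this call as well (limma adjusted p of 0.0563 to 0.219, differences of 2.39 to 2.77). Angptl4, another lipase inhibitor, differed by -2.16, and Pltp, phospholipid transfer protein, by -1.38 (limma adjusted p = 0.0931 and 0.12). Blocking on slide, Angptl8 rose and Angptl4, Pltp and Mylip fell, Mylip being named after its values were seen.

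Transcription regulators of apolipoprotein genes had a median of -0.31 over 21 of 23 genes that passed the filter, none of which passed the test over all genes. Nr1d1 was above background on no array. Ppara, the fatty acid receptor of fasting liver, differed by -1.66 (limma adjusted p = 0.0679), and its coactivators Ppargc1b and Ppargc1a by -2.37 and -1.43 (0.175 and 0.204). With its probes averaged Ppara differed by -1.35 (limma adjusted p = 0.169). The Ppargc1b probe was well above background on 4 of 6 arrays, and its difference was -1.18 with normexp background correction (limma adjusted p = 0.388). Srebf1, which drives fatty acid synthesis, differed by 1.74 (limma adjusted p = 0.205). In the fixed-block fit Srebf1 rose, and Ppara, Ppargc1a, Ppargc1b and Creb3l3 fell, Creb3l3 being named after its values were seen.

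Apob transcripts are edited in mouse liver, which yields the shorter protein B-48. None of 7 editing factors passed over all genes or in the fixed-block fit, and their median was -0.04. The deaminase Apobec1 differed by 0.86 and its cofactor A1cf by -0.69 (limma adjusted p = 0.601 and 0.545). Hnrnpab and Syncrip, which bind the editing complex, differed by 0.37 and 0.17 (limma adjusted p = 0.844 and 1), Syncrip by -0.15 when its probes are averaged. An array of this kind does not measure the edited base.

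In whole liver fewer cells of a type and less RNA per cell cannot be told apart. The 7 hepatocyte markers, such as Alb and Ttr, were well above background on all arrays, their summed signal in units of the array's 75th percentile ran from 1610 to 2110 in controls and from 1430 to 1740 in DECB samples, and all 7 lay below 0 with a median of -0.28 and none past the test. That median is close to the -0.32 of the 9 genes, and the part of hepatocyte content in it was not tested. Enterocytes also make Apoa1, Apoa4, Apob and Mttp, and of 9 enterocyte markers Lct, Cdx2 and Slc5a1 were above background on no array and 4 passed the filter. The sum of these 4 was 24.3 to 37.5 in controls and 13 to 23.3 in DECB samples. It was almost wholly Fabp2 (-0.72), a gene that liver also expresses. Rbp2 differed by -0.44, and Cdx1 and Sis by 0.32 and 0.76, each at a probe well above background on 4 of 6 arrays.

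Macrophages also make Apoe, and their 9 measured markers of 10 summed to 26.7 to 39 in controls and 27.3 to 32.3 in DECB samples. Sums for control and DECB samples were 21.8 to 40 and 15.7 to 31.8 for endothelial, 26.4 to 52.7 and 17.2 to 37.2 for stellate and fibroblast, and 1.21 to 7.44 and 2.37 to 32.1 for cholangiocyte markers. They were 4.57 to 5.54 and 3.81 to 6.81 for leukocyte (1 DECB array lacks a Cd3e spot), 23.1 to 35.5 and 10.3 to 21.4 for erythroid, and 1.61 to 2.23 and 2.12 to 2.53 for pancreatic acinar markers. Erythroid markers and the enterocyte sum were the lists whose ranges did not overlap, and their part in the differences above was not tested. The erythroid sum was mostly Hba-a1 (-1.73). Hbb-bs differed by -1.28, at a probe well above background on 3 of 6 arrays, while Alas2 differed by 0.88. The cholangiocyte range was set by Cftr, whose relative log2 signal was -1.74 in control 1 and 4.95 in DECB 5. All 4 cholangiocyte markers that passed the filter lay above 0, from 0.68 (Spp1) to 1.25 (Cftr). Their median was 0.88, and none passed the test. The probes of Krt19 and Spp1 were well above background on 4 and 5 of 6 arrays. No adipocyte marker of 3 passed the filter, with Adipoq and Lep above background on no array.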

How the data were processed

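Per the file headers, each deposited file of an array holds the intensity values of 1-colour scanner output from Agilent Feature Extraction 11.0.1.1, also named in the submitters' processing notes. The processed Cy3 signal was used, with no normalization between arrays. The series' value table holds deposited log2 values, whose making no label or header states.

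Each array was scaled to the 75th percentile of processed signal over its 43020 non-control spots before log2 was taken. Spots marked as non-uniform or population outliers were left out (164 to 322 per array) and spots of a probe averaged. Of 39429 probes, the 25416 that were flagged as well above background by the scanner software on 3 or more arrays were kept. Genes were named by matching accessions to RefSeq on GRCm38.p6 (27234 of 28684 matched, 12195 probes unnamed), and each gene was given by its brightest kept probe. limma 3.58.1 in R 4.3.3 (lmFit, eBayes) was fitted over 14803 genes with Benjamini-Hochberg adjustment, threshold 0.05. Its residual degrees of freedom were 4, and 2 with slide as a fixed block. The fit without a block was also run on simulated data that held no slide effect, so that run does not bear on the slides here. Groups came from titles. The array design names build mm9, so no probe or gene coordinates are given beyond the RefSeq promoter windows on GRCm38.p6.

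The members, lists and tests were chosen with earlier results of these data known. Of each list, the genes past the threshold and up to 4 with the smallest p were named, and some results on list genes are not reported here. The alternatives tried are given in the closing section. The number of arrays limits the precision.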

Additional observations from a re-analysis of the deposited data

Results flagged for a closer look

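The series' value table was used in no comparison, because it did not follow the scanner values: Pearson's r between a column and its own array was 0.742 to 0.774 over probes, a range that nearly coincides with the 0.729 to 0.773 between a column and other arrays, against at least 0.874 among the scanner arrays themselves. Its columns are named here by their labels, and whether they hold these samples could not be settled, so its values may not be those of the labelled samples. Its unit is log2, and its centring and direction stay unknown. At 3 of the 11 member probes all DECB columns lay above all control columns, as at 15.8% of named probes. Apoa1 had a highest control of 2.79, a lowest DECB value of 2.96 and a highest of 3.7, opposite in direction to the scanner values. Apob at its brighter scanner probe had 2.35, 2.41 and 3.7, and Apoe had 13, 13.3 and 13.7. The controls of this Apob probe, 2.32 to 2.35, lay at the lowest value of the table, 2.32. At the other Apob probe all DECB columns (3.28 to 3.47) lay below all control columns (3.69 to 3.82). Groups of 3 were not tested for outlying arrays.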

How the results depend on the processing

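No paired analysis was possible because the titles share no number between groups and the source names give every sample the same one. Genes called over all genes numbered 69, and 37 with quantile normalization, 988 with slide as a fixed block, 2228 with slide as a random block, 2 with controls 2 and 3 averaged, 0 with no filter on dim probes (limma, 1257 at an unadjusted p under 0.05) and 0 to 53 with 1 array left out. Members called were 0 (1 at an unadjusted p under 0.05), and 1 and 2 with slide as a fixed and a random block. With the fixed block and 1 array left out, added after seeing the data, 0 to 1 were called: Apob in place of Apoa5 without DECB 4, and none without control 2 or 3. Of 144 values of the members under the alternatives with a test 10 changed sign, those of Apoc3 (0.0204 with normexp on median signals, a column chosen after seeing the files, 0.0602 and 0.0477 with the fixed and random block, 0.0034 without slide 1, -0.10 to 0.0461 with 1 array left out), Apoa4 (-0.045 to 0.36) and Apoe (-0.28 to 0.0648). With 1 array left out Apoa5 ran from -1.75 to -0.83, Apob from -2.10 to -0.55, Apoa1 from -0.97 to -0.29 and Mttp from -0.79 to -0.61, with no adjusted p under 0.187. Syncrip changed sign too (-0.145 with a gene's probes averaged, -0.121 to 0.499 with 1 array left out). Saa1 and Angptl8 were not called with no filter on dim probes, without slide 1 or with controls 2 and 3 averaged. Of the lipoprotein pathway genes named as called with the fixed block, Saa1 and Saa2 were called without each array in turn, and each of the others was lost without at least 1 array. Apoa1 was -0.39 with quantile normalization and Apoa2 -0.12 with normexp. Scaling by the median moved the median of all genes from -0.03 to -0.16, with Apoa5 at -1.37. The value table was not run, as it did not follow the scanner values. Slide 1, with a low signal over background, limits its dim probes.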

Other observations

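In the series' value table the member probes stood at other ranks than in the scanner files, and its columns, named by their labels, may not hold the labelled samples. Apoa1 lay at percentile 30.6 of all table values and at 97.8 of the mean scanner values over probes, and Apoa4, Apoa5 and Mttp lay at 32, 34.7 and 48.3 against 87.6, 93.3 and 93.3. The 2 Apob probes lay at 28.4 and 35.6 against 95.7 and 93.2. Apoe kept a high rank in both, 96.5 and 100. Alb and Ttr, defining markers of hepatocytes, lay at 70.2 and 56.4 of the table against 100 and 99.7 of the scanner values. Ahsg, another of these markers, ran from 2.35 in the column of control 3 to 10.6 in that of DECB 4. Apoc3 ran likewise from 4.69 in control 3 to 9.71 in DECB 4, while in the scanner files its 6 arrays lay between 8.80 and 9.09.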
